A study of Bos taurus with 24 samples.

Results

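The miRNAs described here are the mature products of a small X-linked gene cluster, chosen by name: bta-miR-424-5p, bta-miR-424-3p, bta-miR-503-5p, bta-miR-503-3p, bta-miR-450a, bta-miR-450b and bta-miR-542-5p. All 7 had a row in the deposited tables, out of 796 listed miRNAs. The question was whether feed restriction raised them in the mammary gland (MG). Small RNA libraries were made from MG biopsies of midlactation, multiparous Holstein (HOLS, 5 cows) and Montbéliarde (MONT, 6 cows) cows, and every cow gave a biopsy before (CONT) and a biopsy at the end (REST) of 6 days of restriction, 22 libraries in all. The labels give the restricted ration as 60% of the net energy of lactation, while the methods of the study give another percentage. The labels name a further HOLS cow, which was not analysed here. There was no unrestricted group sampled at the same times, so restriction and the days that passed between both biopsies cannot be told apart.

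In mammals the miR-424 and miR-503 genes lie side by side and are copied as one long primary transcript, from which Drosha and Dicer cut the hairpins that give a 5p and a 3p strand. In the rodent MG this pair of genes is known for its rise at involution, when milk is no longer removed and secretory epithelium is lost, and its known targets include regulators of the cell cycle and of survival signalling. Mature miR-424-5p shares its seed, the short 5′ stretch that pairs with mRNAs, with miR-15, miR-16, miR-195 and miR-497. The miR-450 and miR-542 hairpins lie beside the pair.

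In the RefSeq gene table for cattle (assembly ARS-UCD2.0, used here for gene order only, since the study aligned its reads to another assembly) the order on chromosome X was HPRT1, MIR450B, MIR450A-1, MIR450A-2, MIR542, MIR3601, MIR503, MIR424 and PLAC1. The hairpins of the members thus followed each other with 1 other entry, MIR3601, between them. In all 22 libraries the miR-3601 row held the same counts as the miR-542-5p row, so these rows are 1 measurement under 2 names. The counts cannot be assigned to either entry, and they are described here under the name miR-542-5p. Mature miR-450a can come from either of its 2 loci, which 1 count row cannot separate.

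The libraries held between 6087865 and 18913916 miRNA counts. The tissue label was checked with miRNAs of known cell types: epithelial miR-141 had a mean normalized count of 264509, rank 11 of all miRNAs, and miR-143 of smooth muscle had 2890350, rank 1. The other 5 miRNAs listed for stroma and smooth muscle were far lower, with summed medians of 15400 to 29890 in the 4 groups. The biopsies were thus mixed tissue, in which fewer cells of a type and less RNA per cell cannot be told apart. Deviations from the group means had a positive correlation within a cow across miRNAs in 10 of the 11 cows. Of these, MONT cow 2614 had an r of only 0.0735, and the rest lay between 0.25 and 0.759. MONT cow 9615 was the single one with a negative value, r = -0.327, so results that rest on it are given with and without it. Every direction given for this cow rests on the labels of its libraries, which no other measurement here could check.

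The cluster was a minor part of the MG miRNome and its members differed widely in level. Levels are counts divided by size factors estimated over the 22 libraries (normalized counts), and levels of different miRNAs also depend on how well each ligates to the adapters, which was not corrected. miR-450b was the most abundant, with a mean normalized count of 521 ± 138 (SD, n = 22) and rank 149. It alone made up 58.3% ± 4.60 of the counts of the cluster. Next came miR-450a with 162 ± 43.5 and miR-424-5p with 144 ± 37.4, ranks 192 and 198, whose ranges over the libraries overlapped almost entirely (93.1 to 247 and 69.2 to 217).

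Lower still were miR-542-5p (27.6 ± 12.1) and miR-424-3p (24.998 ± 11.4), which also overlapped each other, followed by miR-503-3p (10.6 ± 4.44). miR-503-5p, the strand named as the guide in most accounts of this gene, was barely detected, with 13 counts over all libraries and 0 in 14 of them. The strand balance therefore differed inside the pair. For miR-424 the 5p strand was the major one (3520 counts against 610), and for miR-503 the 3p strand was (245 counts against 13). Against the 6 other miRNAs that carry its seed, miR-424-5p was also scarce: it made up 0.440% ± 0.124 of the counts of these 7 miRNAs together, of which miR-16a was the most abundant (mean normalized count 12078).

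**Figure D1:**
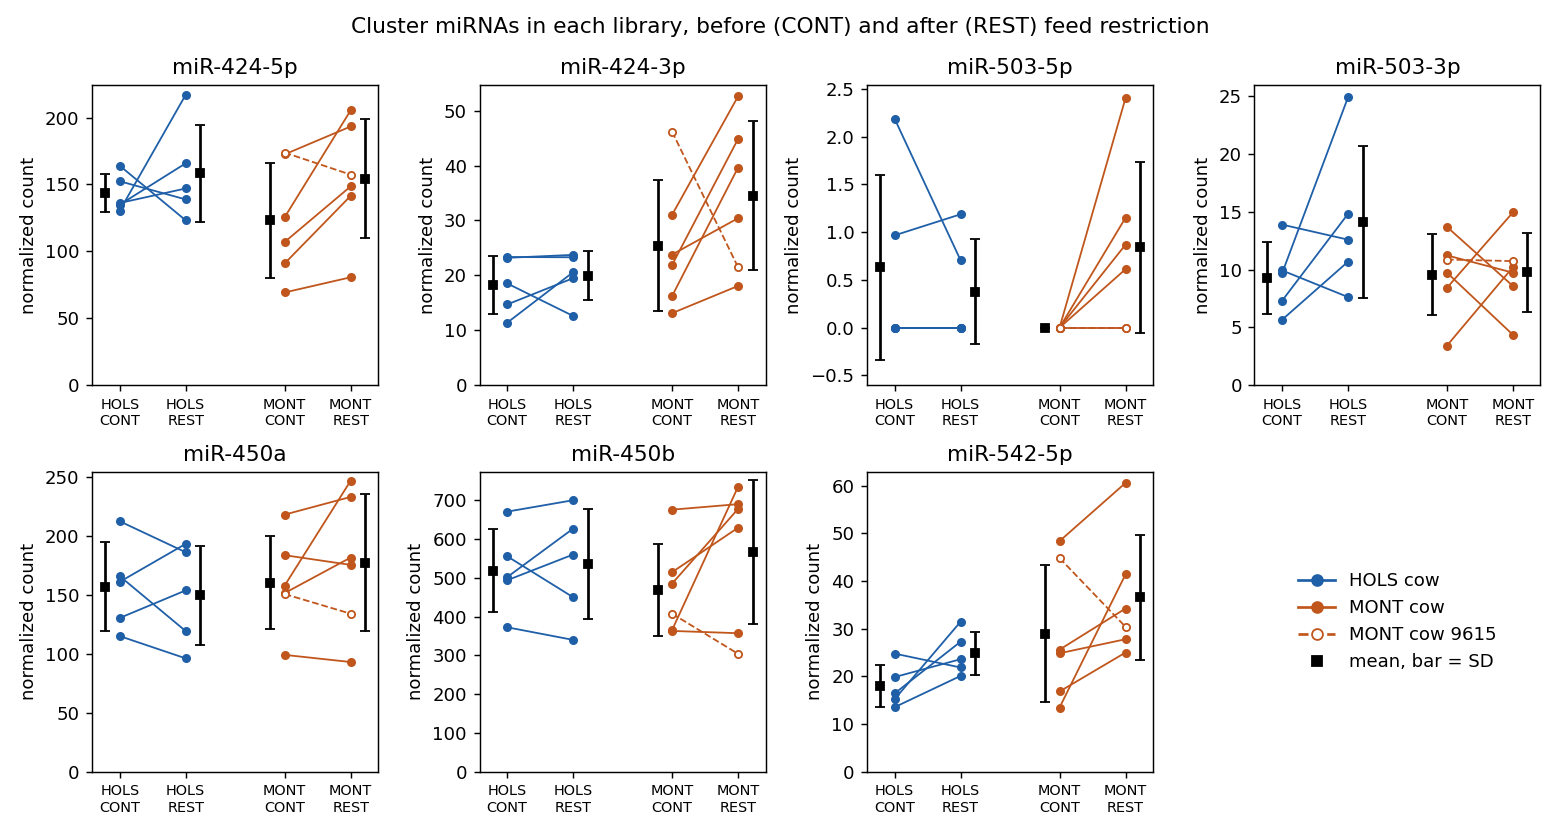
Normalized count (linear axis, each panel with its own scale) of the 7 cluster miRNAs in each library; a line joins the CONT and REST biopsies of a cow, squares and bars are the mean and SD of the 5 HOLS or 6 MONT cows, and the dashed line is MONT cow 9615. CONT and REST values overlap for each miRNA in both breeds, and miR-503-5p lies at or below 2.40.

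In HOLS cows none of the 6 members that could be tested passed the test for a change with restriction. The test was edgeR's quasi-likelihood test on the counts with Benjamini-Hochberg adjustment over all miRNAs tested, and a change was called at an adjusted p of at most 0.05; 0 of 6 members were called, where 2.41% of the 374 miRNAs tested were, all of these lower at REST. miR-542-5p came nearest. Its normalized counts in cows 1155, 1165, 2182, 8200 and 9195 were 24.8, 16.4, 19.9, 13.5 and 15.2 at CONT, and 21.9, 27.3, 23.6, 20.1 and 31.5 at REST. It was higher at REST in 4 of the 5 cows, all but cow 1155 (34.2% of all miRNAs tested were higher in at least as many), and the groups overlapped. The log2 fold change was 0.44 (SE 0.22, 95% interval -0.03 to 0.92, adjusted p = 0.244).

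miR-424-5p, the strand that shares its seed with miR-16, had normalized counts of 135, 130, 136, 152 and 164 at CONT in the same order of cows, and 166, 217, 147, 139 and 123 at REST. The CONT values lay close together and the REST values spread to both sides of them, with 3 cows higher and 2 lower. Its log2 fold change was 0.12 (SE 0.16, interval -0.22 to 0.46, adjusted p = 0.711), so a mean rise above 1.37-fold lay outside the interval. The strand opposite to it, miR-424-3p, had a log2 fold change of 0.09 (interval -0.45 to 0.62), miR-450b of 0.03 (-0.39 to 0.46) and miR-450a of -0.08 (-0.54 to 0.39).

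miR-503-3p went from a mean of 9.28 ± 3.12 to 14.1 ± 6.58 normalized counts in HOLS (SD, n = 5) and had the widest interval of the members (log2 fold change 0.51, -0.22 to 1.24, adjusted p = 0.383). It rests on 5 to 21 counts per library, and the log2 fold change was 0.26 without cow 1165. With the cow as a block, 16.3% of the miRNAs tested in HOLS were called, 61 in place of 9. None of the members was among them; the lowest adjusted p of a member in that fit was 0.164, of miR-542-5p.

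In MONT cows the 5 members tested had positive log2 fold changes, as did 49% of the 349 miRNAs tested, and none was called. No miRNA was called in this breed (0%), with 47 at an unadjusted p under 0.05 and 0 called by DESeq2. miR-503-3p and miR-503-5p did not pass the filter on low counts. miR-424-3p had the largest log2 fold change, 0.45 (SE 0.33, interval -0.26 to 1.16, adjusted p = 0.473). Its normalized counts had a minimum, median and maximum of 13.1, 22.8 and 46.2 at CONT and of 18.1, 35.0 and 52.6 at REST. The highest CONT value was that of cow 9615, in which miR-424-3p was lower at REST (21.5), while it was higher at REST in the other 5 cows.

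The 5p strand showed the same split of cows. The minimum, median and maximum of miR-424-5p were 69.2, 116 and 174 at CONT and 80.6, 153 and 205 at REST, and cow 9615 was again the single one with a lower value at REST. The log2 fold change was 0.31 (SE 0.28, interval -0.28 to 0.91, adjusted p = 0.556). miR-542-5p, with a log2 fold change of 0.31 (interval -0.40 to 1.03), was also higher at REST in all cows but 9615. Of all miRNAs tested in MONT, 28.9% were higher in at least 5 cows. miR-450b and miR-450a had log2 fold changes of 0.25 and 0.13, and their cows were more evenly divided, with 4 and 3 of 6 higher at REST. With the cow as a block, 0 miRNAs were called in MONT. The lowest adjusted p of a member in that edgeR fit was 0.292, of miR-424-5p (log2 fold change 0.33, SE 0.16, interval -0.03 to 0.69).

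The rare strand miR-503-5p had no count in the 6 MONT libraries at CONT, and 1 or more counts in 4 of the 6 at REST, 7 counts in all. Over the pooled libraries the REST level was 0.0975 CPM (counts scaled to a fixed library total; exact 95% Poisson interval 0.0392 to 0.201, covering counting error only). At CONT the same interval reached 0.0690, and the simpler limit of 3 counts 0.0561. In HOLS it had 4 counts at CONT and 2 at REST. It did not pass the filter on low counts in any comparison. In edgeR without that filter its adjusted p in MONT was 0.513 (unadjusted 0.0146), and DESeq2 gave an unadjusted p of 0.262.

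**Figure D2:**
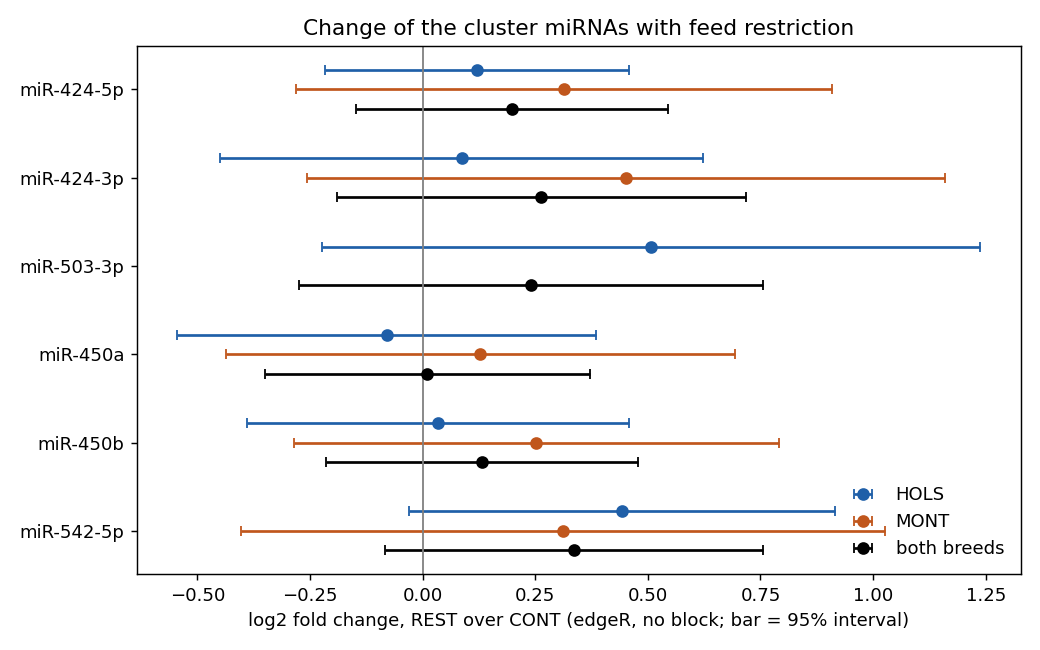
Log2 fold change of REST over CONT for the members tested in HOLS (blue), MONT (orange) and both breeds (black), from edgeR without a block; bars are 95% intervals. Each interval includes 0, and the point for miR-450a in HOLS, at -0.08, is the single one below it.

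Over both breeds, fitted together on 22 libraries with the breed as a term, all 6 members tested had log2 fold changes above 0 and none was called. Of the 388 miRNAs tested, 47.2% had a value above 0, 9.02% were called in either direction and 2.06% were called higher. The median log2 fold change of the members was 0.22, beside -0.03 for all miRNAs tested. miR-542-5p had the largest value, 0.34 (SE 0.20, interval -0.08 to 0.76, adjusted p = 0.266), and was higher at REST in 9 of 11 cows, as 22.4% of all miRNAs tested were in at least 9 cows. With the cow as a block, 14.4% of the miRNAs tested were called. The interval of miR-542-5p was then 0.01 to 0.74, with an unadjusted p of 0.0456 and an adjusted p of 0.121.

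The others were closer to 0. miR-424-3p had a log2 fold change of 0.26 (interval -0.19 to 0.72), miR-503-3p of 0.24 (-0.28 to 0.76) and miR-424-5p of 0.20 (-0.15 to 0.54), the last with 8 of 11 cows higher at REST, where 31.7% of all miRNAs tested were higher in at least 8. The values for miR-450b and miR-450a were 0.13 (-0.22 to 0.48) and 0.01 (-0.35 to 0.37). The upper ends of these intervals, from the fit without a block, are folds of 1.29 to 1.69 for the 6 members. Mean rises above these sizes lay outside the 95% intervals of that fit only. With the cow as a block the interval of miR-503-3p reached a log2 fold change of 0.81. Without cow 9615, and without a block, the interval of miR-424-3p was -0.01 to 0.91. That of miR-542-5p was 0.02 to 0.93 and did not include 0 (adjusted p = 0.107 in edgeR).

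**Figure D3:**
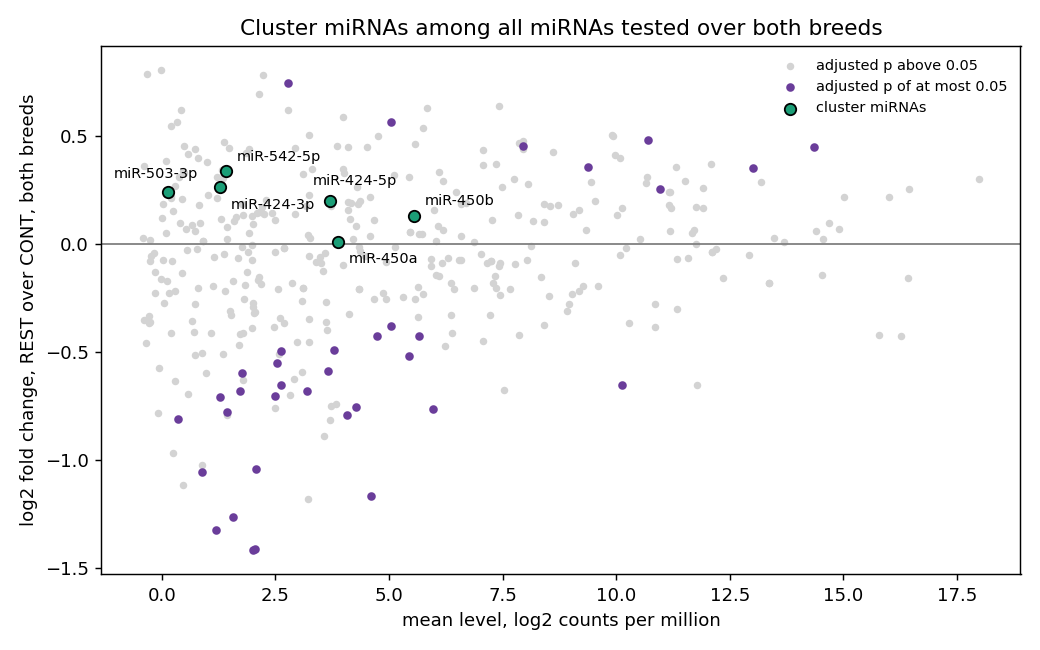
Mean level (log2 CPM) against log2 fold change of REST over CONT for the 388 miRNAs tested over both breeds; purple points have an adjusted p of at most 0.05 and green points are the 6 members tested. The members lie between 0.01 and 0.34, inside the cloud of miRNAs that were not called.

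The values without cow 9615 are given because its libraries went against the within-cow pattern across all miRNAs, a choice made after the data were seen. In this cow 6 of the 7 members were lower at REST, miR-424-3p by the most (log2 change of -1.07), and miR-503-5p was at 0 in both biopsies. Cow 2614 was the opposite, with all 7 higher at REST. It was kept in the fits without cow 9615, although its r across miRNAs was only 0.0735. Without cow 9615, 12.8% of the 358 miRNAs tested were called in MONT, 46 in place of 0, and no member was among them; miR-424-3p then had a log2 fold change of 0.77 (interval 0.05 to 1.49, adjusted p = 0.130). Over both breeds 31.2% were called, 121 in place of 35, again with no member.

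When the cow was also used as a block, 39.1% of the miRNAs tested in MONT were called, and 1 of 5 members: miR-424-3p, higher at REST by a log2 fold change of 0.78 (SE 0.23, interval 0.27 to 1.28, adjusted p = 0.0210). miR-424-5p had 0.41 (adjusted p = 0.0630). Over both breeds the same fit called 44.1% of all miRNAs and 22.2% as higher, and 1 of 6 members, miR-542-5p (log2 fold change 0.49, SE 0.16, interval 0.15 to 0.84, adjusted p = 0.0225). miR-424-3p had 0.46 (adjusted p = 0.0537) and miR-424-5p 0.26 (adjusted p = 0.0904). As 18.2% of all miRNAs in MONT were called as higher in that fit, 1 member in each comparison is close to the background.

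Lists of cell type markers were also compared between the periods, and edgeR without a block called none of them within either breed. Endothelial markers had a median log2 fold change of 0.32 in HOLS and -0.08 in MONT, and leukocyte markers of 0.27 and 0.13. Those of red blood cells had -0.09 in HOLS and -0.75 in MONT, and those of skeletal muscle 0.01 and -0.003. The 6 miRNAs of stroma and smooth muscle all had positive log2 fold changes in edgeR, with a median of 0.67 in MONT and 0.29 in HOLS and 0 of 6 called in each breed. Over both breeds 1 was called as higher (miR-199b), beside 2.06% of all miRNAs. In HOLS 2 were called as higher with the cow as a block and 1 (miR-143) with DESeq2. The block also called other markers as higher in HOLS. These were 3 of 6 leukocyte markers, 1 of 2 endothelial markers (miR-126-3p) and 1 of 3 red blood cell markers (miR-486). DESeq2 called 1 leukocyte marker, miR-155, as higher in HOLS. In either direction these fits called 16.3% and 5.46% of all miRNAs. Without cow 9615 the stromal median in MONT was 1.003 and 4 of 6 stromal markers were called as higher, where 7.26% of all miRNAs were.

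miR-143 made up nearly all of their summed level, which ranged from 2099000 to 4206000 normalized counts at MONT CONT and from 2355000 to 4864000 at MONT REST. With miR-143 left out the sum ranged from 13280 to 35030 and from 20730 to 39960. The 9 epithelial miRNAs listed had a median log2 fold change of -0.27 in MONT and -0.10 in HOLS, with 0 called in each breed by edgeR. They did not all go the same way, as 2 of 9 in MONT and 3 of 9 in HOLS were above 0. The highest in both breeds was miR-205, with 0.30 in MONT and 0.10 in HOLS. miR-200b was called as lower over both breeds (log2 fold change -0.65, adjusted p = 0.00656), where edgeR called 9.02% of all miRNAs in either direction. In HOLS 3 of the 9 were called as lower with the cow as a block and 2 with DESeq2, beside 16.3% and 5.46% of all miRNAs in either direction. The part of these shifts in the values of the cluster was not tested.

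**Figure D4:**
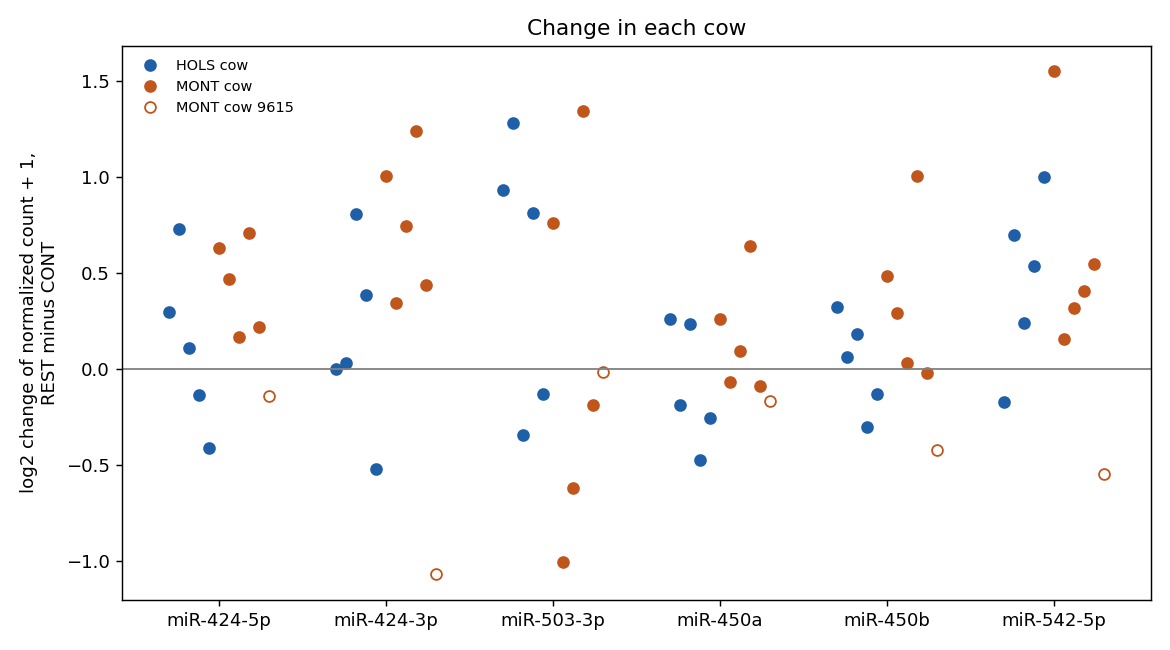
Log2 change of the normalized count plus 1, REST minus CONT, for 6 cluster miRNAs in each of 5 HOLS (blue) and 6 MONT (orange) cows; the open circle is cow 9615. The open circle is the lowest MONT point for each miRNA except miR-503-3p, and for miR-424-3p it lies at -1.07.

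The response of the cluster was not shown to differ between the breeds. In the test of the difference itself, the breed by period interaction, no miRNA was called (0% of 388, with 3 at an unadjusted p under 0.05 and 0 called by DESeq2). The largest value of a member was 0.48 for miR-503-3p (HOLS change minus MONT change, interval -0.56 to 1.52) and the lowest was -0.39 for miR-424-3p (interval -1.31 to 0.53), both with an adjusted p of 0.991. Without cow 9615 the value for miR-424-3p was -0.74 (adjusted p = 0.583). These intervals are wide, and differences of the size of the changes themselves lie within them.

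Between the breeds, miR-424-3p and miR-542-5p had the lower means in HOLS. At REST the 5 HOLS libraries held 12.6 to 23.7 normalized counts of miR-424-3p, mean 19.9 ± 4.48, and the 6 MONT libraries 18.1 to 52.6, mean 34.5 ± 13.6. Of the MONT values, those of cows 5663 and 9615 lay within the HOLS range and the other 4 above it. The log2 fold change of HOLS over MONT was -0.82 (SE 0.31, interval -1.49 to -0.16, adjusted p = 0.0806), which was not called, in a comparison where 15.3% of the 378 miRNAs tested were. It was called without cow 5663 (-0.96, adjusted p = 0.0437) or without cow 9615 (-0.92, adjusted p = 0.0436). These are the MONT cows whose values lay within the HOLS range, so leaving out either one widens the difference. It was not called with any other cow left out, and the values with a cow left out ranged from -0.96 to -0.67. The last section gives the range of the number of all miRNAs called with a cow left out, and not the number in these fits. No background share is therefore set beside these calls. Stromal markers also differed there, with 3 of 6 called as lower in HOLS (median log2 fold change -0.75), and their part in this value was not tested.

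At CONT the difference in miR-424-3p was -0.47 (interval -1.17 to 0.24, adjusted p = 0.430). miR-542-5p had a log2 fold change of HOLS over MONT of -0.71 at CONT (interval -1.45 to 0.02, adjusted p = 0.251) and of -0.58 at REST (interval -1.16 to 0.00, adjusted p = 0.1497). At CONT 0.556% of the 360 miRNAs tested were called, and no member. The major strand miR-424-5p was close between the breeds, with 0.21 at CONT (interval -0.32 to 0.74) and 0.01 at REST (interval -0.50 to 0.53).

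The ratio between both strands of miR-424 had higher means in MONT than in HOLS. Per count of miR-424-5p there were 0.129 ± 0.0440 counts of miR-424-3p at HOLS CONT and 0.126 ± 0.0190 at HOLS REST (SD, n = 5). In MONT there were 0.204 ± 0.0487 at CONT and 0.225 ± 0.0632 at REST (n = 6). At REST 1 MONT library, that of cow 9615 (0.136), lay within the HOLS range of 0.102 to 0.140 and the other 5 lay above it. At CONT 1 MONT library, that of cow 2614 (0.129), lay within the HOLS range of 0.0833 to 0.178 and the other 5 lay above it. This ratio was described after its values were seen and was not tested. The authors describe the MONT libraries as of lower quality than those of HOLS, with more short reads and adapters. In this ratio and in every comparison of the breeds, breed and library quality thus cannot be told apart. The ratio of miR-450b to miR-450a was 3.26 ± 0.461 over all libraries, with overlapping ranges in the 4 groups.

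**Figure D5:**
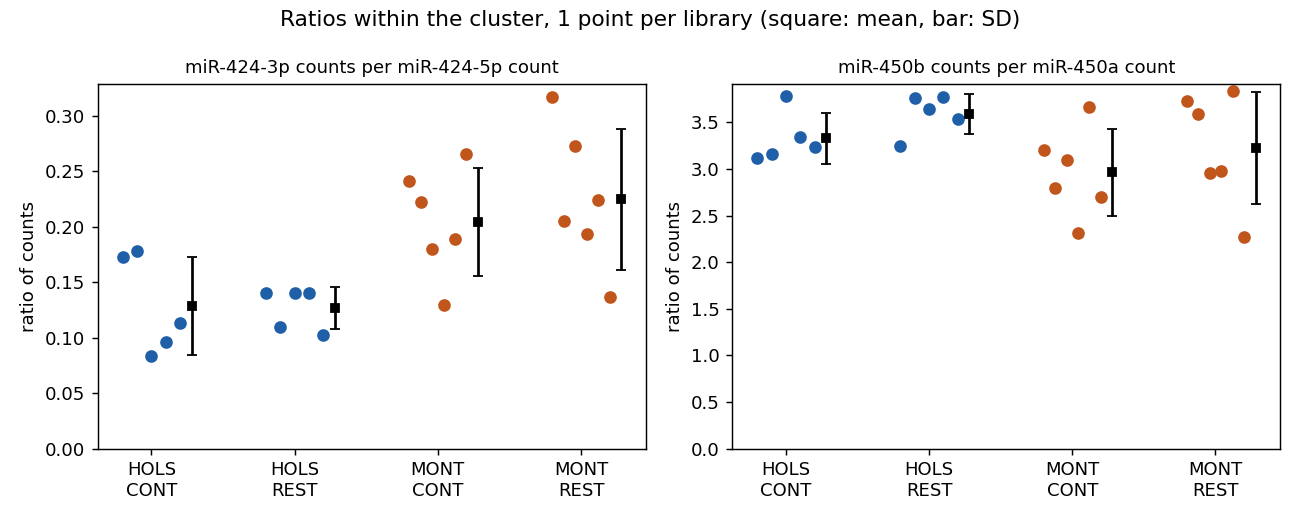
Ratio of raw counts in each library, miR-424-3p over miR-424-5p (left) and miR-450b over miR-450a (right), by group; squares and bars are the mean and SD of 5 (HOLS) or 6 (MONT) libraries and both axes start at 0. The strand ratio of miR-424 had means of 0.129 and 0.126 in HOLS and of 0.204 and 0.225 in MONT.

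Within the cluster the levels moved together across libraries to unequal degrees. With breed means removed, log2 levels of miR-450a and miR-450b had r = 0.877 over the 22 libraries, and those of both miR-424 strands r = 0.732. miR-424-5p had r = 0.682 with miR-450a, 0.667 with miR-542-5p and 0.519 with miR-450b. The value for miR-542-5p came from the MONT libraries, with r = 0.0204 in HOLS and 0.819 in MONT. In HOLS and MONT r was 0.428 and 0.805 for miR-424-3p, 0.385 and 0.804 for miR-450a, and 0.472 and 0.547 for miR-450b. Among 387 other miRNAs ordered by r with miR-424-5p, miR-424-3p ranked 3, miR-450a 5, miR-450b 51 and miR-503-3p 141. miR-503-3p, on few counts, had r from 0.00505 (miR-450a) to 0.306 (miR-542-5p) with the other members. Its r with miR-424-5p was 0.197, and it was 0.651 in HOLS and 0.0378 in MONT. The 2 libraries farthest from the median of miR-424-5p were those of MONT cow 5663. Without them the r of miR-424-5p was 0.612 with miR-424-3p, 0.614 with miR-542-5p, 0.478 with miR-450a, 0.396 with miR-450b and 0.370 with miR-503-3p. These are descriptions: 2 libraries share each cow, and all values share the size factors.

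The 5 miRNAs outside the cluster whose pattern was most like that of miR-424-5p by the same measure were miR-409a (r = 0.826), miR-369-3p (0.765), miR-6123 (0.707), miR-493 (0.680) and miR-15b (0.677). Spearman's rho for them lay between 0.610 and 0.774. Of these, miR-15b carries the same seed, while miR-409a, miR-369-3p and miR-493 are products of the large imprinted DLK1-DIO3 cluster. Without the same 2 libraries, r was 0.744 for miR-409a, 0.637 for miR-369-3p, 0.674 for miR-6123, 0.717 for miR-493 and 0.576 for miR-15b. Within HOLS alone r was 0.654 for miR-409a, 0.624 for miR-6123, 0.301 for miR-369-3p, 0.143 for miR-15b and 0.0833 for miR-493. Within MONT all 5 lay between 0.765 and 0.853, so the likeness of the last 3 came mostly from the MONT libraries.

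The 6 miRNAs that share the seed of miR-424-5p had higher summed levels, and edgeR without a block called none of them between the periods. In HOLS all 6 had positive log2 fold changes, from 0.08 (miR-15a) to 0.34 (miR-195), and 0 were called; with the cow as a block 1 was (miR-195), beside 16.3% of all miRNAs. In MONT 4 of 6 were above 0, from -0.15 (miR-16a) to 0.38 (miR-497), and 0 were called. Over both breeds miR-195 was called with the block (adjusted p = 0.0481) and miR-497 with DESeq2 (adjusted p = 0.0128), beside 14.4% and 13.9% of all miRNAs. Between the breeds miR-16a was called as higher in HOLS at CONT (log2 fold change 0.77) and at REST (1.04) by edgeR. DESeq2 also called miR-16b as higher at REST (adjusted p = 0.0324, and 0.0524 in edgeR), where it called 17.3% of all miRNAs.

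A neighbouring X-linked cluster, which holds miR-106a, miR-18b, miR-20b and miR-363 and lies 5 gene entries away, had values of the opposite sign. All 4 were below 0 in HOLS, in MONT and over both breeds, with 0 of 4 called in each by edgeR without a block. Over both breeds they ranged from -1.02 (miR-18b) to -0.25 (miR-363), with a median of -0.43. With the cow as a block 2 of 4 were called in HOLS and 1 of 4 over both breeds, beside 16.3% and 14.4% of all miRNAs. DESeq2 called 1 of 4, miR-18b, in HOLS (adjusted p = 0.0178) and over both breeds (adjusted p = 0.0250), beside 5.46% and 13.9% of all miRNAs.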

How the data were processed

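The authors sequenced TruSeq small RNA libraries, trimmed adapters, kept reads by size, annotated them with ncPRO-seq and used miRDeep2 against the bovine genome and miRBase. The deposited counts are whole numbers per miRNA. The authors' normalized counts, a signal, are counts divided by DESeq2 size factors estimated within each breed; they were recalculated within 8.4e-10 and replaced by factors over 22 libraries. The deposited log2 fold changes and p-values of the authors' own comparisons were not used. The submitters' processing notes name bcl2fastq 2.17.1.14 and DESeq2 1.18.1.

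The members and lists were chosen with earlier results of these data known. All members are described in every comparison; for the lists, counts and the highest and lowest values are given, and the 5 miRNAs outside the cluster most correlated with miR-424-5p. Counts were tested with edgeR 4.0.16 (R 4.3.3): TMM, filterByExpr with a minimum count of 10, quasi-likelihood F test and Benjamini-Hochberg adjustment over all miRNAs tested, threshold 0.05, with scripts tested on simulated data. Standard errors come from the F statistic. DESeq2 1.42.0, other scalings and filters, the cow as a block and each cow left out were alternatives. Changes per cow use a pseudocount of 1. Libraries with the same number come from the same cow per the labels; their deviations correlated with r from 0.25 to 0.535 in HOLS and from -0.327 to 0.759 in MONT. Intervals of counts cover counting error only, since reads carry no molecular identifiers.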

Additional observations from a re-analysis of the deposited data

How the results depend on the processing

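The number of miRNAs called depended on the settings more than the values of the cluster did. In HOLS it was 9, and it was 26 with DESeq2, 20 with library size only, 5 without a filter, 26 at an adjusted p of 0.10, 61 with the cow as a block and 3 to 14 with a cow left out. In MONT it was 0, and 0 to 46 with a cow left out, the 46 without cow 9615; with the block and without cow 9615 it was 140. Over both breeds it was 35, and it was 55 with DESeq2, 13 without a filter, 65 at 0.10, 56 with the block, 11 to 121 with a cow left out and 171 with the block and without cow 9615. Between the breeds at CONT it was 2, and it was 20 with DESeq2, 1 with library size only, 7 at 0.10 and 0 to 6 with a cow left out. At REST it was 58, and 97 at 0.10 and 38 to 77 with a cow left out. For the interaction it was 0.

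Of 34 results of single members, none was called in the fits reported first. Calls appeared for miR-424-3p between the breeds at REST (at 0.10, and without cow 5663 or 9615) and for miR-424-3p in MONT and miR-542-5p over both breeds with the block and without cow 9615, a fit chosen after the data were seen. The block changed no other call of a member. With library size only the sign turned in HOLS for miR-424-5p (-0.046), miR-424-3p (-0.086) and miR-450b (-0.14), over both breeds for miR-450a (-0.052), in the interaction for miR-542-5p (-0.062) and between the breeds at REST for miR-424-5p (-0.13); with the block it turned for miR-450a over both breeds (-0.014). With a cow left out, values that crossed 0 ranged in HOLS from -0.055 to 0.22 for miR-424-5p, -0.056 to 0.17 for miR-424-3p and -0.062 to 0.10 for miR-450b, over both breeds from -0.019 to 0.096 for miR-450a, in the interaction from -0.11 to 0.39 for miR-542-5p, at CONT between the breeds from -0.16 to 0.071 for miR-450a, and at REST from -0.12 to 0.10 for miR-424-5p and -0.22 to 0.038 for miR-450b. None of these was called, and the cause was not tested. miR-503-5p was limited by depth, with at most 4 counts in a library.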
